A study of Eublepharis macularius with 8 samples.

Results

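The genes described here mark the wall of blood vessels. They are 4 genes known from pericytes (PDGFRB, RGS5, ABCC9 and KCNJ8) and 5 genes of the smooth muscle contractile apparatus (LMOD1, ACTA2, TAGLN, MYH11 and CNN1), taken from the gene table by exact symbol. Of these 9 genes, 8 were measured among 22407 rows matched to a gene symbol, and 7 were among the 15491 genes with enough counts to test. CNN1 was measured but had too few counts for the test, and RGS5 was not analysed here. RNA of whole teeth from adult leopard geckos (Eublepharis macularius), which shed and replace their teeth throughout life, was sequenced as 4 libraries of functional teeth, which are in use, and 4 of developing teeth, which will take their place. Replicates 1 to 3 of each group were females with 3 teeth pooled per library. Replicate 4 was male, with 10 functional or 11 developing teeth pooled. Its RNA integrity number (RIN), a measure of RNA quality, was the lowest of each group, at 9.1 in functional and 8.8 in developing teeth. The female libraries had 9.2 to 9.6. Sex, pool size and RIN therefore cannot be told apart. No treatment, transgene or mutation is named in the labels. The titles number the libraries of each group as Biolrep 1 to 4, but the labels do not say that each came from a separate animal. The p-values here therefore reflect only how far these libraries scatter, which may be technical in part.

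Pericytes wrap capillaries and small venules, and smooth muscle cells form the contractile coat of arteries and arterioles. Endothelial cells release the growth factor PDGFB, and mural cells that carry its receptor PDGFRB are drawn to the vessel. In contractile cells myosin pulls on actin filaments, and ATP-sensitive potassium channels set the membrane potential and with it the tone of the vessel. In mammalian teeth such vessels run through the pulp and the periodontal tissue. PDGFRB is also made by fibroblasts, and ACTA2 and TAGLN by activated fibroblasts, so these genes are not specific to mural cells.

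The libraries held between 14144573 and 30935120 estimated counts. Type I collagen (COL1A1 plus COL1A2) took between 29.2% and 33.2% of matched counts in the functional libraries. In developing replicates 1 to 4 it took 20.6%, 18.6%, 5.73% and 4.37%. Levels are therefore given as CPM, counts scaled to library sizes that were adjusted by TMM, which damps the pull of a few very abundant genes. The TMM factors were 0.752 to 0.853 in functional and 1.10 to 1.39 in developing libraries. A lower factor raises the CPM, so this scaling lifted functional against developing levels for every gene. The log2 differences were not recomputed on unscaled sizes. The dentin gene DSPP, a marker of tooth mesenchyme, was detected in every library, at 4261 ± 728 CPM (mean ± SD, n = 4) in functional teeth and 3227 ± 2042 CPM in developing ones. The ameloblast gene AMELX, of the enamel-forming cells, had 2163, 4956, 9496 and 17402 CPM in developing replicates 1 to 4, so developing replicates 3 and 4 held the most of it and the least type I collagen. Among functional libraries, replicate 1 held 470 CPM of AMELX and the others 3.56 to 3.91 CPM. Functional replicate 1 was also the lowest functional library for ABCC9, KCNJ8, LMOD1 and TAGLN and the highest for PDGFRB, and the part of enamel epithelium in this was not tested.

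On TMM-scaled sizes all 7 tested genes averaged more in functional than in developing teeth, and none passed the test. The median log2 difference (the fitted log2 fold change, functional minus developing) was 1.01 over the 7 genes and 0.0013 over all tested genes. Of all tested genes 50.2% had a positive value. The members were chosen with earlier results of these data known and were measured in the same 8 libraries. Their shared direction is therefore a description and was not tested. None of the 7 was past an adjusted p of 0.05 in edgeR's quasi-likelihood test, where 436 of 15491 genes were (2.81%; 124 higher and 312 lower in functional teeth, 69 and 151 with the replicate number as a block, and 721 and 959 in DESeq2). At an unadjusted p under 0.05 there was 1 of the 7, PDGFRB, against 22.3% of all tested genes. DESeq2 also called 0 of the 7 and 11.0% of the genes it tested, and limma-voom called 0 of the 7 and 1.41%. No member had every functional library above every developing library, which 6.42% of tested genes had. None had the reverse either, which 1332 of 15491 tested genes had. In bulk tissue, fewer cells of a type and less RNA per cell cannot be told apart.

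**Figure D1:**
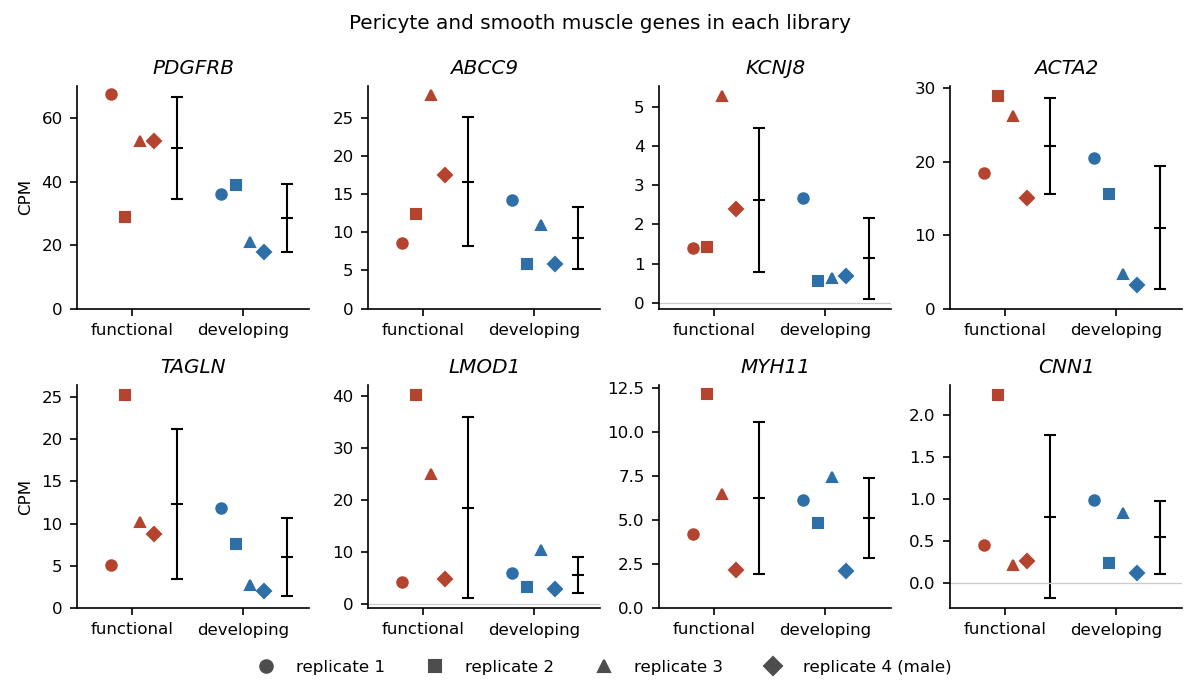
CPM of the 8 measured pericyte and smooth muscle genes in each library (linear axes that start at or below 0), functional teeth in red and developing teeth in blue, with 1 marker shape per replicate number. Black bars are the mean ± SD of 4 libraries. The groups overlap in every panel, and functional replicate 2 is the highest library for ACTA2, TAGLN, LMOD1, MYH11 and CNN1.

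PDGFRB, the receptor through which PDGFB recruits pericytes, came nearest to the threshold in edgeR's main fit. In DESeq2 LMOD1 came nearer, with an adjusted p of 0.110 against 0.116 for PDGFRB. The levels of PDGFRB were 67.6, 28.8, 52.9 and 52.9 CPM in functional replicates 1 to 4. They were 36.2, 39.0, 20.9 and 17.7 CPM in developing replicates 1 to 4. The functional libraries were above the developing ones except for functional replicate 2, which lay below developing replicates 1 and 2. The log2 difference was 0.83 ± 0.33 (SE), with a 95% interval of 0.07 to 1.59 and an adjusted p of 0.192. With 1 library left out it ran from 0.66 without functional replicate 1 (adjusted p = 0.316) to 1.02 without functional replicate 2 (adjusted p = 0.161). With the female libraries alone it was 0.63 (adjusted p = 0.43).

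ABCC9 and KCNJ8 encode the regulatory and the pore-forming subunit of the ATP-sensitive potassium channel of vascular mural cells. They lie next to each other in the RefSeq annotation of the gecko assembly MPM_Emac_v1.0, with no other protein-coding gene between their start positions. ABCC9 had 8.58, 12.4, 28.0 and 17.5 CPM in functional replicates 1 to 4. It had 14.3, 5.89, 11.0 and 5.88 CPM in developing replicates 1 to 4. Functional replicate 3 was the highest and the groups overlapped, with functional replicate 1 below developing replicates 1 and 3. On the log2 scale ABCC9 differed by 0.84 ± 0.43 (95% interval -0.13 to 1.82, adjusted p = 0.282), and by 0.48 without functional replicate 3 (adjusted p = 0.569).

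KCNJ8 had 1.41, 1.42, 5.27 and 2.39 CPM in functional replicates 1 to 4, from 25, 35, 102 and 55 counts. In developing replicates 1 to 4 it had 2.66, 0.553, 0.622 and 0.692 CPM, from 65, 12, 12 and 18 counts. Developing replicate 1 stood above 3 of the 4 functional libraries, and the other 3 developing libraries lay below every functional library. The log2 difference was 1.20 ± 0.66 (95% interval -0.31 to 2.71, adjusted p = 0.322), 2.09 ± 0.57 without developing replicate 1 (adjusted p = 0.0924) and 0.61 without functional replicate 3 (adjusted p = 0.64). The paralogous channel subunits were barely detected: ABCC8 reached at most 0.205 CPM, and KCNJ11, which was at 0 in 5 libraries, at most 0.311 CPM.

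The channel subunits had a like order of libraries. Over the 8 libraries the Pearson correlation of log2 CPM was 0.90 between ABCC9 and KCNJ8. Between ABCC9 and the contractile genes it ranged from 0.17 with CNN1 to 0.63 with LMOD1, and between KCNJ8 and the contractile genes from 0.03 with CNN1 to 0.66 with ACTA2. With PDGFRB, the other pericyte gene measured, it was 0.43 for ABCC9 and 0.60 for KCNJ8, within those ranges. PDGFRB itself was highest with a contractile gene, ACTA2, at 0.73. Of the 28 pairs among the 8 genes, only ACTA2 with TAGLN was higher than ABCC9 with KCNJ8, at 0.91. These values describe 8 libraries that share their group structure, and were not tested.

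ACTA2 encodes the smooth muscle form of actin, and TAGLN transgelin, a protein that binds actin filaments. ACTA2 had 18.4, 29.0, 26.2 and 15.1 CPM in functional replicates 1 to 4 and 20.5, 15.6, 4.77 and 3.19 CPM in developing replicates 1 to 4. Developing replicates 1 and 2 lay within the functional range, and developing replicates 3 and 4 far below it. The same developing libraries were low in type I collagen and high in AMELX, and the part of either in the result was not tested. ACTA2 differed by 1.01 ± 0.56 on the log2 scale (95% interval -0.28 to 2.30, adjusted p = 0.329).

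TAGLN had 5.08, 25.2, 10.2 and 8.73 CPM in functional replicates 1 to 4. Its developing libraries held 11.8, 7.55, 2.75 and 2.04 CPM in replicate order. As for ACTA2, developing replicates 3 and 4 were the lowest of the 8 libraries and functional replicate 2 the highest, while developing replicate 1 was second. TAGLN differed by 1.03 ± 0.66 on the log2 scale (95% interval -0.48 to 2.53, adjusted p = 0.391), and 0.41 without functional replicate 2.

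LMOD1 encodes leiomodin, which starts new actin filaments in smooth muscle. It had 4.23, 40.2, 25.1 and 4.74 CPM in functional replicates 1 to 4 and 5.90, 3.27, 10.5 and 2.85 CPM in developing replicates 1 to 4. Functional replicates 2 and 3 were the 2 highest libraries, and functional replicates 1 and 4 lay inside the developing range. The log2 difference, 1.73 ± 0.79 (95% interval -0.07 to 3.52, adjusted p = 0.24), was the largest of the 7 in this fit. Without functional replicate 2 it was 1.02, below the 1.41 of KCNJ8 in the same libraries. LMOD1 was the only member with deposited values that were not whole (5 of 8 libraries, at a tolerance of 0.01).

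**Figure D2:**
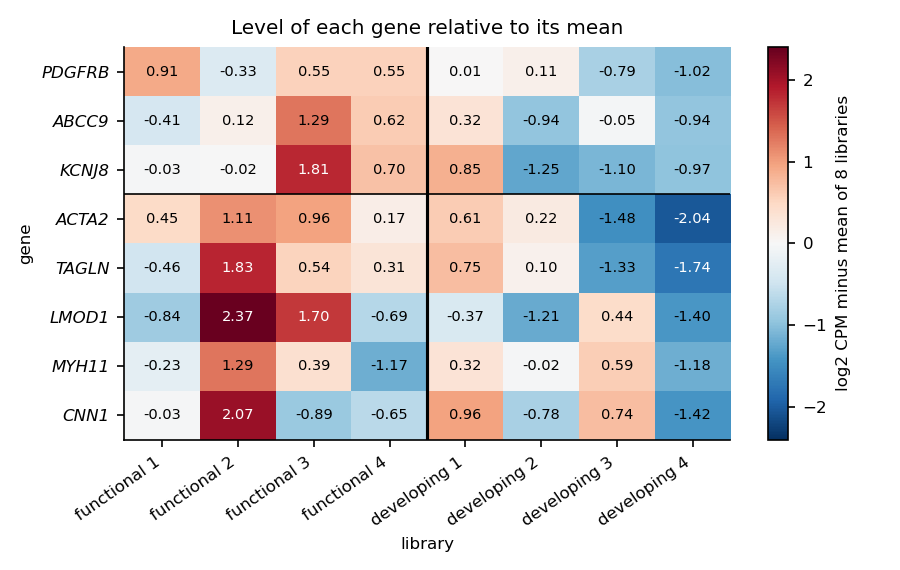
Log2 CPM of each gene in each library minus the gene's mean over the 8 libraries (colour and printed value), with functional libraries left of the vertical line and pericyte genes above the horizontal line. Developing replicate 4 is below the mean for all 8 genes, and functional replicate 2 is above it for every contractile gene and below it for PDGFRB.

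MYH11, the myosin heavy chain of smooth muscle, and CNN1, the actin-binding calponin, mark the most differentiated contractile cells. MYH11 had 4.18, 12.1, 6.46 and 2.13 CPM in functional replicates 1 to 4 and 6.15, 4.83, 7.41 and 2.11 CPM in developing replicates 1 to 4. Apart from the high functional replicate 2, the groups covered the same range. For MYH11 the log2 difference was 0.28 ± 0.55 (95% interval -0.98 to 1.55, adjusted p = 0.794), and it turned to -0.27 without functional replicate 2 (adjusted p = 0.81).

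CNN1 had 8, 55, 4 and 6 counts in functional replicates 1 to 4 and 24, 5, 16 and 3 counts in developing replicates 1 to 4. On the CPM scale this was 0.787 ± 0.968 in functional teeth and 0.54 ± 0.431 in developing ones (n = 4), and functional replicate 2 held 2.23 CPM where the other functional libraries held at most 0.452. With no filter on low counts its log2 difference was 0.56 ± 0.93 (adjusted p = 0.778).

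**Figure D3:**
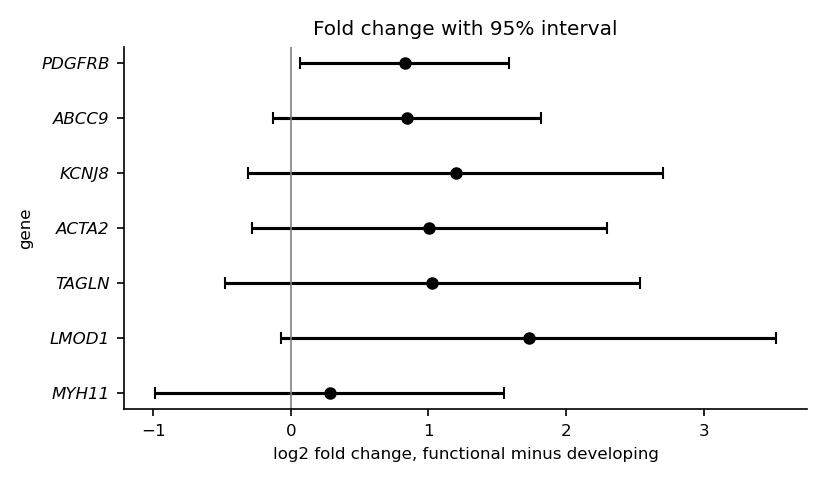
Log2 difference, functional minus developing, of the 7 tested genes (points) with the 95% interval (bars) from edgeR's quasi-likelihood fit. Every point is above 0, and the interval of PDGFRB alone, from 0.07 to 1.59, does not hold 0.

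The spread between libraries of a group was wide for these genes. The median SD of log2 CPM over all tested genes was 0.28 in functional and 0.32 in developing libraries. For PDGFRB it was 0.52 and 0.57. LMOD1 reached 1.64 in functional libraries, above 96.3% of tested genes, and ACTA2 1.29 in developing libraries, above 93.5%. All 7 genes were above at least 72.3% of tested genes in each group. The part of their low counts in this spread was not tested.

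Functional replicate 2 held the most of all 5 contractile genes at once. The summed contractile genes had 32.3, 109, 68.1 and 30.9 CPM in functional replicates 1 to 4, while the summed PDGFRB, ABCC9 and KCNJ8 had 77.6, 42.6, 86.2 and 72.8 CPM. PDGFRB made up between 61.4% and 87.1% of the pericyte sum in each library, by counts not corrected for transcript length. Functional replicate 2 had the highest contractile sum and the lowest functional pericyte sum, the latter through PDGFRB, since ABCC9 and KCNJ8 were lowest in functional replicate 1. In developing replicates 1 to 4 the contractile sums were 45.4, 31.5, 26.2 and 10.3 CPM, and the pericyte sums 53.2, 45.5, 32.5 and 24.3 CPM. Here the sums had the same order, highest in replicate 1 and lowest in replicate 4. The contractile partners ACTG2, the enteric form of smooth muscle actin, and DES, which encodes the intermediate filament desmin, also peaked in functional replicate 2, at 128 and 27.9 CPM. The other 7 libraries held 13.3 to 52.5 CPM of ACTG2 and 0.961 to 11.1 CPM of DES. Some of the 20 tested partners peaked in functional replicate 2 and others elsewhere. SMTN, another partner, had 27.5, 22.6, 28.9 and 32.9 CPM in functional replicates 1 to 4, the lowest of these in replicate 2. ACTG2, DES and SMTN were picked after their values were seen.

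Ratios within a library do not depend on library scaling, and they overlapped between the groups. The log2 ratio of the summed contractile to the summed pericyte counts was -0.37 ± 1.23 in functional and -0.58 ± 0.46 in developing libraries (mean ± SD, n = 4), with functional replicate 2 at 1.35. The log2 ratio of ACTA2 to PDGFRB was -1.17 ± 0.88 in functional and -1.69 ± 0.75 in developing libraries, from 0.01 in functional replicate 2 to -2.47 in developing replicate 4. MYH11 stood at -2.06 ± 0.64 against ACTA2 in functional and at -0.85 ± 1.12 in developing libraries. Developing replicates 3 and 4 had the highest values of that ratio, 0.64 and -0.59, where every other library was at or below -1.26. ACTA2 was low in both libraries, at 4.77 and 3.19 CPM. MYH11 was high in developing replicate 3, at 7.41 CPM, and low in developing replicate 4, at 2.11 CPM. The ratio in developing replicate 3 thus reflects both genes. The ratio of ABCC9 to KCNJ8 was 2.75 ± 0.31 in functional and 3.27 ± 0.72 in developing libraries.

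**Figure D4:**
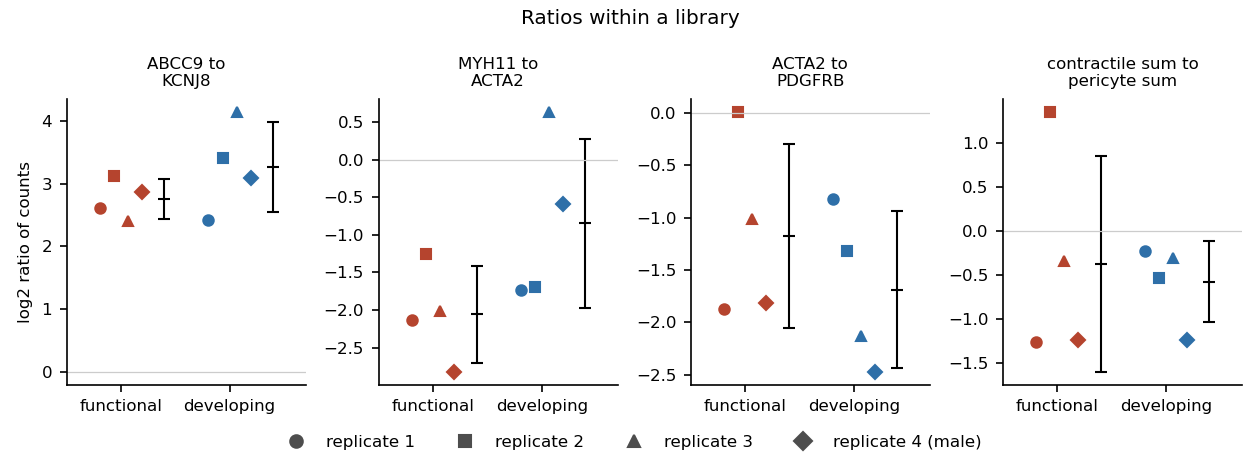
Log2 ratios of counts within each library for ABCC9 to KCNJ8, MYH11 to ACTA2, ACTA2 to PDGFRB and the summed contractile to the summed pericyte genes, functional teeth in red and developing teeth in blue, 1 marker shape per replicate number. Black bars are the mean ± SD of 4 libraries. Functional replicate 2 is the highest point for the sums (1.35), and developing replicates 3 and 4 are the highest for MYH11 to ACTA2.

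By replicate number, the difference between functional and developing libraries (log2 CPM) depended on the gene. The labels do not say that same-numbered libraries are pairs, so these differences rest on the numbering alone. In number 1 it was 0.90 for PDGFRB and negative for the other 7 measured genes, from -0.16 for ACTA2 to -1.21 for TAGLN. In number 2 only PDGFRB was negative, at -0.44, and LMOD1 reached 3.58. In number 3 it was positive except for MYH11 (-0.20) and CNN1 (-1.63). In number 4, the male libraries, all 8 genes were positive, from 0.01 for MYH11 to 2.21 for ACTA2.

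The male libraries, which also pool more teeth and have lower RIN, were compared with the female ones in a model that holds tissue constant. None of the 7 genes passed, and 1 had an unadjusted p under 0.05 (21% of all tested genes did). All 7 had a negative male minus female value. The share of all tested genes with a negative value is not given here, so that count is a description only. Over all genes 725 of 15491 passed (4.68%), 563 of them higher in male libraries. MYH11 was nearest, with 2.12 CPM on average in male and 6.86 CPM in female libraries, a male minus female log2 difference of -1.68 ± 0.43 (adjusted p = 0.0767). The male libraries were the 2 lowest of the 8 for MYH11. ACTA2 differed by -1.30 ± 0.57 (adjusted p = 0.245) and LMOD1 by -1.72 ± 0.84 (adjusted p = 0.293). The interaction of tissue with sex was fitted in edgeR alone. Each group had only 1 male library, so the spread in that fit came from the female libraries, and scatter between male libraries was not measured. The fit therefore cannot show whether the difference between functional and developing teeth depends on sex. The largest interaction was that of ACTA2, 1.39 on the log2 scale.

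Other genes of the same processes came from lists. Among the contractile partners and paralogs of members, 20 of 26 were tested, 14 had a positive log2 difference, 0 rose and 1 fell, with a median of 0.24. The gene that fell was ITGA8, an integrin subunit of smooth muscle and mesenchymal cells. It had 17.0, 36.7, 15.3 and 17.7 CPM in functional replicates 1 to 4 and 113, 75.2, 103 and 60.0 CPM in developing replicates 1 to 4, which is -2.02 ± 0.34 on the log2 scale (adjusted p = 0.0315; under the replicate block 0.0537). Every developing library held more ITGA8 than any functional library, the opposite direction to the members. CNN3, the calponin of non-muscle cells, had a log2 difference of 0.55 ± 0.15 (adjusted p = 0.0839). PPP1R14A, an inhibitor of myosin phosphatase, averaged 51.2 CPM in functional teeth and 25.6 CPM in developing ones (adjusted p = 0.129).

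Of 14 regulators of mural and smooth muscle genes, 11 were tested, 1 rose and 0 fell, with a median log2 difference of 0.35. FHL1, a LIM-domain protein of muscle and mesenchyme, rose from 37.9, 53.1, 37.6 and 28.8 CPM in developing replicates 1 to 4 to 109, 160, 100.2 and 102 CPM in functional replicates 1 to 4. The groups did not overlap, and the log2 difference was 1.58 ± 0.24 (adjusted p = 0.026). MEF2C (1.18 ± 0.31, adjusted p = 0.0828) and FOXF1 (0.83 ± 0.24, adjusted p = 0.1), transcription factors of muscle and of mesenchyme, did not pass. MYOCD, which encodes the myocardin coactivator of contractile genes, had at most 1.26 CPM and a log2 difference of 0.35 ± 0.67 (adjusted p = 0.786), and SRF, the factor it binds, one of -0.14 ± 0.15 (adjusted p = 0.627). MYOCD and SRF were picked after their values were seen.

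Among other pericyte genes 14 of 21 were tested, 12 had a positive value, 0 rose and 1 fell, with a median log2 difference of 0.40. The gene that fell was CD248, also called endosialin, a surface protein of pericytes and of growing fibroblasts. It had 13.3, 16.5, 29.5 and 50.4 CPM in functional replicates 1 to 4 against 229, 93.3, 218 and 194 CPM in developing replicates 1 to 4. The groups did not overlap, and the log2 difference was -2.74 ± 0.48 (adjusted p = 0.0345). DLK1 had a log2 difference of 1.13 ± 0.33 (adjusted p = 0.107), and GJA4, a connexin of the vessel wall, one of 1.33 ± 0.43 (adjusted p = 0.131). The pericyte markers CSPG4 (-0.14 ± 0.27, adjusted p = 0.789) and MCAM (0.05 ± 0.39, adjusted p = 0.949) had log2 differences near 0. CSPG4 and MCAM were picked after their values were seen.

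Of 15 genes for PDGF and other signals of mural cell recruitment, all were tested, 12 had a positive value, 1 rose and 0 fell, with a median log2 difference of 0.69. TGFB1, a growth factor that promotes mural differentiation, rose from 158 ± 66.4 to 428 ± 57.3 CPM (1.44 ± 0.30 on the log2 scale, adjusted p = 0.046; under the replicate block 0.0521). S1PR1, a sphingolipid receptor, had a log2 difference of 1.57 ± 0.42 (adjusted p = 0.0829) and TEK, the endothelial angiopoietin receptor, one of 0.97 ± 0.26 (adjusted p = 0.0834). PDGFB, the ligand of PDGFRB, was at 14.7 ± 5.75 CPM in functional teeth and 15.3 ± 2.78 CPM in developing ones (log2 difference -0.05 ± 0.28, adjusted p = 0.928). It was picked after its values were seen. Of the 22 genes for vessel tone 17 were tested, 10 had a positive value and 0 passed edgeR's test, with a median of 0.11. Before adjustment 5 higher and 3 lower genes were under 0.05, against 1477 higher and 1985 lower of all 15491 tested genes. Among the vessel tone genes with the smallest p were the calcium release channel gene ITPR1 (-1.54 ± 0.35, adjusted p = 0.0584) and the angiotensin receptor gene AGTR1 (-1.80 ± 0.51, adjusted p = 0.0983).

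The calls of FHL1, ITGA8, CD248 and TGFB1 were lost in many smaller sets of libraries, while the differences stayed similar in size. With the female libraries alone their adjusted p-values were 0.0969, 0.0981, 0.0969 and 0.175. FHL1 lost the call without functional replicate 2, 3 or 4 or developing replicate 3 or 4, and ITGA8 without functional replicate 1, 3 or 4 or developing replicate 3 or 4. CD248 lost it without any 1 functional replicate or developing replicate 3 or 4, and TGFB1 without any 1 library except developing replicate 2. With 1 library left out, the log2 differences lay between 1.40 and 1.76 for FHL1, -2.39 and -1.85 for ITGA8, -3.21 and -2.51 for CD248, and 1.25 and 1.72 for TGFB1. Over these fits the highest adjusted p was 0.124, for TGFB1. Over all genes the count called also fell, from 124 higher and 312 lower to 7 and 9 without functional replicate 2.

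**Figure D5:**
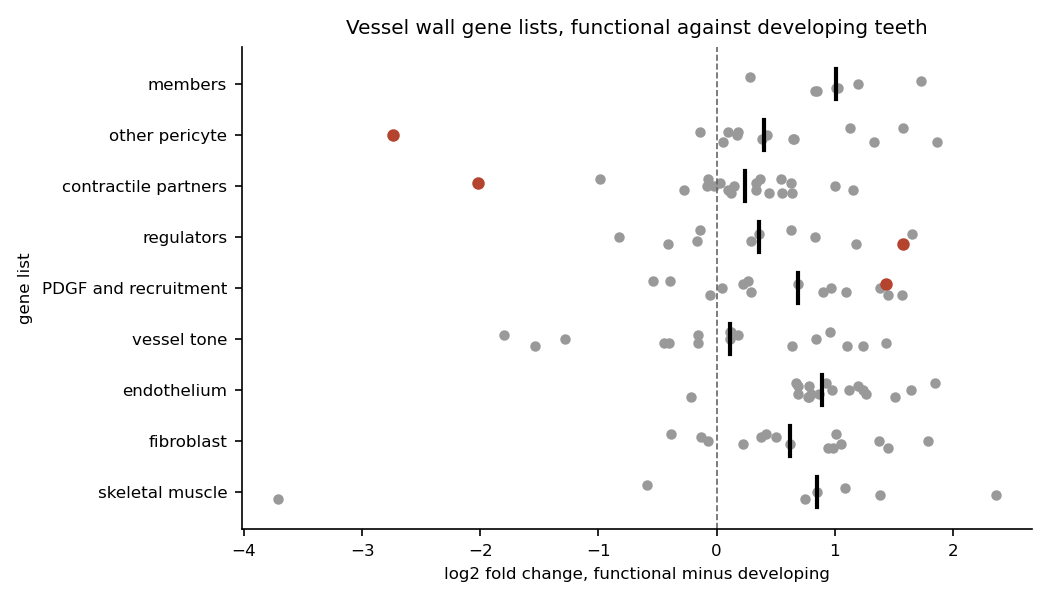
Log2 difference, functional minus developing, of each tested gene (points) in the pericyte and smooth muscle genes and 8 related lists, with red for an adjusted p under 0.05 and a black bar for the list median. The dashed line is the median of all tested genes, 0.0013. The 4 red points are CD248 and ITGA8 on the left and FHL1 and TGFB1 on the right.

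Markers of other cell types were measured beside the members, and none of the endothelial, fibroblast or skeletal muscle markers passed edgeR's test. Of 18 endothelial markers, which line the vessels that mural cells wrap, 17 had a positive log2 difference, with a median of 0.89. In edgeR's test 0 passed, and 11 were higher at an unadjusted p under 0.05, as were 1477 of all 15491 tested genes. The summed level of the markers ran from 359 to 626 CPM in functional and from 155 to 337 CPM in developing libraries, without overlap. PLVAP alone averaged 185 CPM in functional teeth. The mean log2 level of the markers, which weights them equally, did overlap, with developing replicate 1 at 0.26 relative to the mean of all libraries and functional replicates 1 and 2 at 0.20 and 0.22. PLVAP, a protein of endothelial pores, had a log2 difference of 1.65 ± 0.37 (adjusted p = 0.0568), ESAM one of 1.24 ± 0.32 (adjusted p = 0.0763) and CLDN5 one of 1.26 ± 0.33 (adjusted p = 0.0822). In 6 of the 18 every functional library was above every developing library, against 0 of the 7 members and 6.42% of all tested genes. Whether the lists differ was not tested.

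Fibroblast markers summed to between 15788 and 21822 CPM in functional and between 5658 and 17546 CPM in developing libraries. Of the 15 tested, 12 had a positive value, with a median log2 difference of 0.62. In edgeR's test 0 passed, and 5 were higher at an unadjusted p under 0.05 (1477 of all 15491 tested genes were). The collagen gene COL5A1 (1.79 ± 0.54, adjusted p = 0.109), MFAP5 (1.45 ± 0.46, adjusted p = 0.127) and decorin, DCN (0.99 ± 0.34, adjusted p = 0.146), had the smallest p. The 7 skeletal muscle markers that were tested summed to between 39.2 and 143 CPM in functional and between 24.2 and 85.2 CPM in developing libraries. Single genes made up much of these sums. ACTN3 held 120 of the 143 CPM in functional replicate 2, and ACTA1 held 59.4 of the 85.2 CPM in developing replicate 3. Among them MYOG was at 0 in all 8 libraries and MYOD1 in 6. Others of the list were detected in every library, such as ACTN3 (2.58 to 120 CPM) and ACTA1 (0.959 to 59.4 CPM). CKM (at most 0.933 CPM), TNNC2 (at most 0.466 CPM) and NEB (at most 0.365 CPM) were low throughout. These 3 were picked after their values were seen. The part of endothelial, fibroblast or muscle RNA in the levels of ACTA2, PDGFRB and the other members was not tested.

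For each member, up to 3 genes of similar pattern are given, taken as those with the highest Pearson correlation of log2 CPM over the 8 libraries, restricted to named genes that averaged 10 CPM or more. KCNJ8 was nearest to the endothelial adhesion gene PECAM1 (0.98), then to DOCK6 (0.96) and to PODXL (0.96), which encodes a sialomucin of endothelium and kidney. PECAM1 had a log2 difference of 0.87 (adjusted p = 0.182). PDGFRB was nearest to TAOK1, FARSA and RABEP1 (0.97 to 0.98), and ABCC9 to WNK2, METRNL and GHITM (0.96 to 0.97). ACTA2 was nearest to TMEM45A, DCAF13 and TCIM (0.99 each), and TAGLN to APPL2, EXD3 and MRPS25 (0.97 to 0.98). LMOD1 was nearest to PSMD9, CABLES1 and TTC5 (0.94 to 0.98), MYH11 to PHAX, CRYZL1 and DUSP10 (0.97 to 0.98), and CNN1 to ANKLE2 and CLK1 (0.90 to 0.92). None of the genes named for their similar pattern passed the test between functional and developing teeth. With 8295 or 8296 genes ranked over 8 libraries, values this high are a description only.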

How the data were processed

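Per the submitters' processing notes the authors used kallisto, and they deposited estimated counts per gene, 1 column per library and not normalized. Its version, strand setting, genome build and annotation were not given in the sources used here. Kallisto can split reads among nearly alike transcripts; of the members only LMOD1 had values that were not whole, and whether reads of actin or calponin paralogs were assigned to the right gene was not tested. Values were rounded to whole numbers. Of 22488 rows, 81 had no match among the RefSeq symbols of MPM_Emac_v1.0 (0.909% to 1.41% of a library) and were left out. No transcript lengths were used, so sums, shares and ratios of genes depend on transcript length as well as on level. They are read between libraries, not as the relative abundance of the genes.

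After filterByExpr and TMM, edgeR 4.0.16 (R 4.3.3) was fitted across all genes with tissue alone, and p-values were Benjamini-Hochberg adjusted over all of them, with a threshold of 0.05. A standard error is the log2 difference over the square root of F, and the 95% interval uses the fit's degrees of freedom. Log2 CPM for correlations and spreads have a prior count of 2. DESeq2 1.42.0, limma 3.58.1 (voom), other scalings and filters, a sex covariate, a replicate block, female libraries alone and leaving out each library were alternatives, 18 in all. With each group's mean removed, same-numbered libraries correlated at 0.16 to 0.68, each over the limit of 0.1 set for pairs. The 0.68 was that of number 4, where both libraries are male. Unlike numbers also passed the limit, such as functional replicate 3 with developing replicate 1 (0.41) and functional replicate 1 with developing replicate 2 (0.16). Of the 8 libraries 4 correlated best with their own number, so the limit could not show whether the numbers are pairs. The block is an alternative, not the main design. The code was tested on simulated data.

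Members and lists were chosen with earlier results of these data known. Named were all members, 3 genes of similar pattern for each, and from each list the 3 smallest p and every gene past the threshold; exceptions are marked where they appear, except ABCC8, KCNJ11, MYOG, MYOD1, DSPP and AMELX, which are outside the rule and given as levels only, and 2 genes that the rule picks are not reported here.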

Additional observations from a re-analysis of the deposited data

Results flagged for a closer look

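Among 24 sets of 4 libraries (the level of each measured gene and each ratio, in each group), 2 had a library far from the others by Dixon's test, where chance gives about 1 in 20. KCNJ8 was at 2.66 CPM in developing replicate 1, against at most 0.692 CPM in the other developing libraries. CNN1 was at 2.23 CPM in functional replicate 2, against at most 0.452 CPM in the other functional libraries.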

How the results depend on the processing

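None of the 7 tested genes was called under any of the 18 alternatives, and none had groups without overlap on the 3 scalings tried. The number of the 7 with an unadjusted p under 0.05 moved. It was 0 with the female libraries alone (2475 of all 15483 tested genes) and 5 without developing replicate 1 (3457 of 15688). Every alternative fit adjusted the library sizes, and none was run on unscaled ones. Of 126 recomputed log2 differences, 125 kept their direction and their side of the threshold. That of MYH11 turned to -0.27 without functional replicate 2, and with 1 library left out it lay between -0.27 and 0.57; the cause was not tested. The count of genes called higher and lower over the whole table moved with the processing: 69 and 151 with the replicate number as a block, 1 and 2 in female libraries alone, 721 and 959 with DESeq2, and 76 and 143 with limma-voom. With the sex covariate 246 were higher. With 1 library left out, between 2 and 184 were higher and between 5 and 457 lower; both counts moved by over 1.5 times without any 1 functional library or without developing replicate 3 or 4. The block changed no call of a member; in the lists it ended those of ITGA8 and TGFB1. TGFB1 also lost its call with no filter (adjusted p = 0.0519) and in limma-voom (0.0524). For the sex term and the interaction only RLE scaling was tried, and all 14 recomputed values kept direction and side of the threshold. Counts were fewest for CNN1 (121 in all) and KCNJ8 (324).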

Other observations

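Among skeletal muscle markers, the muscle actin gene ACTA1, a paralog of ACTA2, stood at 59.4 CPM in developing replicate 3 and at 7.60 CPM in developing replicate 2, while the other 6 libraries held at most 1.81 CPM (log2 difference -3.71 ± 1.20, adjusted p = 0.128). ACTN3, the actinin gene of fast muscle, went the other way, with 29.1, 120, 47.9 and 65.7 CPM in functional replicates 1 to 4 and 4.34, 34.6, 9.48 and 2.58 CPM in developing replicates 1 to 4 (log2 difference 2.36 ± 0.83, adjusted p = 0.151). ATP2A1, the calcium pump of skeletal muscle, was at most 1.09 CPM (0.85 ± 0.37, adjusted p = 0.221).

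Of 10 red cell markers 3 were tested and none passed edgeR's test or had an unadjusted p under 0.05: KLF1 (0.29 ± 0.62, adjusted p = 0.808), ALAS2 (0.12 ± 0.52, adjusted p = 0.914) and GATA1 (0.01 ± 0.22, adjusted p = 0.984). Their summed level was highest in developing replicate 4, at 224 CPM, the library with the least ACTA2, TAGLN and PDGFRB. Among the tooth markers the smallest p were those of the enamel gene ENAM (-6.51 ± 1.47, adjusted p = 0.0569), MSX2 (-0.56 ± 0.13, adjusted p = 0.0656) and AMBN (-5.34 ± 1.29, adjusted p = 0.0664). None of the 9 tested passed edgeR's test. Before adjustment 1 higher and 5 lower tooth markers were under 0.05, against 1477 higher and 1985 lower of all 15491 tested genes.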
